A study of Mus musculus with 9 samples.

Results

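The epidermal growth factor (EGF) receptor family and its ligands were followed in whole mouse eyeballs by RNA sequencing. The set was chosen by gene symbol and held 10 of the 22587 genes in the tables, namely 3 receptors (Egfr, Erbb2 and Erbb3) and 7 ligands (Egf, Tgfa, Areg, Ereg, Epgn, Btc and Hbegf). All 10 were found and all 10 passed the filter on low counts. The mice were female BALB/C, an albino inbred strain, labelled WT, and 15 were obtained. CON mice received water and no injection. The DES group, for dry eye syndrome, received scopolamine by intraperitoneal injection and was given water. The T.chuii group received the same injections and 300 mg/kg of T. chuii, a green microalga of the genus Tetraselmis, by mouth. Treatment ran for 2 weeks from 6 weeks of age, and the tissue age was postnatal day 56. Each group had 3 libraries, numbered here as in the sample titles. Since CON mice were not injected, the drug and the injection cannot be told apart. Nothing in the labels ties each library to its own animal, so p-values describe only how far these libraries scatter, and that scatter may be partly technical.

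EGF receptor ligands are made as membrane-bound precursors, and proteases of the ADAM family release their active part from the cell surface. A ligand bound to Egfr lets the receptor pair with itself or with another family member, and the kinase then signals through Ras, PI3 kinase and STAT3. In the cornea this signalling is known for driving epithelial growth and wound closure. Scopolamine blocks muscarinic acetylcholine receptors, which lowers tear secretion, and it is used in mice to induce dry eye.

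Depth and tissue content were compared across libraries first. The totals ran from 39.1 to 64.6 M reads, and every gene in the tables had at least 1 read in each library. The 15 genes of a corneal epithelium list took 2.94 to 7.22% of the CON reads, 2.51 to 4.78% of the DES reads and 1.35 to 4.13% of the T.chuii reads. The 10 genes of a rod photoreceptor list took 1.45 to 3.38%, 1.49 to 4.31% and 0.836 to 3.76% of reads. CON 2, DES 1 and T.chuii 1 had the smallest rod share and the largest corneal share of their groups. Lens crystallins and other lens genes (9 of 13 listed were in the tables) took at most 0.0309% of reads in CON and 0.043% in DES 2, against 1.23 to 6.21% in the other 5 libraries. Cryaa, a defining lens marker, had 11 to 737 reads in CON and 9126 in DES 2, against 443465 to 1754449 in those 5. Lens RNA was therefore scarce in 4 libraries labelled as eyeball. Eyelid skin genes stayed at or below 0.00522% of reads in every library. Conjunctiva and goblet cell genes reached at most 0.137%, and meibomian gland genes at most 0.00728%. Other lists differed between groups. Keratocyte and sclera genes were at 0.424 to 0.537% in CON and 0.233 to 0.377% in DES, without overlap, and at 0.218 to 0.467% in T.chuii. Mueller glia genes were at 0.47 to 0.576% in T.chuii, above all CON (0.363 to 0.42%) and DES (0.374 to 0.445%) libraries. Fast skeletal muscle genes were at 0.346 to 1.48% in T.chuii, above CON (0.074 to 0.245%) and overlapping DES (0.132 to 0.776%). In bulk RNA, fewer cells of a type and less RNA per cell cannot be told apart.

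Ereg, Epgn, Areg and Btc lie close together on mouse chromosome 5 (RefSeq annotation of GRCm38.p6, the build also called mm10). Epgn spans chr5:91027517-91035212, Ereg chr5:91074617-91093649, Areg chr5:91139599-91148432 and Btc chr5:91357261-91402994. The first 3 are on the plus strand and Btc is on the minus strand. The gaps between neighbours were 39.4, 45.9 and 209 kb, and the whole stretch covered 375 kb. Egfr is at chr11:16752203-16913907 and Erbb2 at chr11:98412484-98437716, both on the plus strand. Erbb3 is at chr10:128567523-128589635 and Egf at chr3:129677574-129755322, both on the minus strand. Tgfa is at chr6:86195038-86275744 on the plus strand.

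RefSeq promoter sequence was matched for 7 of the 10 genes. Those of 3 of the neighbours on chromosome 5 are shown because these genes differed in pattern between libraries, and those of Egfr and Erbb2 because these followed each other closely. They were chosen after the values were seen. Each run holds the 250 bases before the annotated start, 5′ to 3′ on the gene's own strand, and capitals mark the motif matches. The positions are chr5:91027267-91027516 for Epgn, chr5:91139349-91139598 for Areg, chr5:91402995-91403244 (minus strand) for Btc, chr11:16751953-16752202 for Egfr and chr11:98412234-98412483 for Erbb2.
Epgn: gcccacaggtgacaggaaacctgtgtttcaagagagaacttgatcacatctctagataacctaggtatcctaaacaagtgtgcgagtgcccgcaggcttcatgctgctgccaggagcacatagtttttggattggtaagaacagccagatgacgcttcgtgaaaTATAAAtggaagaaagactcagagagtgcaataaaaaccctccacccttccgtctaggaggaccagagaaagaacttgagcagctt
Areg: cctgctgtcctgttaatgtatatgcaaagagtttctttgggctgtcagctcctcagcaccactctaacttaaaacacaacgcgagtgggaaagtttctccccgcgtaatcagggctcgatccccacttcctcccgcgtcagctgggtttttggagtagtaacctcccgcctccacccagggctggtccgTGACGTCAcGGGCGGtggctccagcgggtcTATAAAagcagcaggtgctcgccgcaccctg
Btc: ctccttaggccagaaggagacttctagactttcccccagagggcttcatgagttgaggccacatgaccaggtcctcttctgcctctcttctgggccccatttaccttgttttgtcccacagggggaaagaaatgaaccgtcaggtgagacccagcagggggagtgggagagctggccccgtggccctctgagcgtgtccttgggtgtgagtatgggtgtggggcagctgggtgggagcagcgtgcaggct
Egfr: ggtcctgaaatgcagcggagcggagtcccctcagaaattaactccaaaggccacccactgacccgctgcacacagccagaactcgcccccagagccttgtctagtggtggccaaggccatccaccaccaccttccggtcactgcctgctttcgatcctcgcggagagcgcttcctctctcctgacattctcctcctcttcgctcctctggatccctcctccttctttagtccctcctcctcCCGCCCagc
Erbb2: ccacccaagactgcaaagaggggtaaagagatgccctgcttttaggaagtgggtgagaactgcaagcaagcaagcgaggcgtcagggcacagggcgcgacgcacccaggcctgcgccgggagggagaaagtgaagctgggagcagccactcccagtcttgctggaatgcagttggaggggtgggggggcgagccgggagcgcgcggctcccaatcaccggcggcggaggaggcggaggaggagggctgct
Both strands were searched for the AP-1 site TGANTCA, the cyclic AMP response element TGACGTCA, the GC box GGGCGG, the TATA box TATAAA and the E-box CACGTG. None of these overlapped another match. Areg held a cyclic AMP response element 61 bases before its start, a GC box at 52 and a TATA box at 31. Of 32851 mouse promoter windows of this length, 1.55% held the response element, 32.7% the GC box and 12.4% the TATA box. Epgn held a TATA box 86 bases before its start, and Egfr held a GC box, on the other strand, 9 bases before its start. The Btc and Erbb2 windows held none of the 5 motifs. The AP-1 site was in 6.75% and the E-box in 6.02% of all windows. The G and C share was 46.8% in Epgn, 57.2% in Areg, 59.6% in Btc, 60.8% in Egfr and 66.0% in Erbb2, beside a median of 52.4% over all windows. A match is a run of letters, and binding was not measured.

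Levels per transcript length were read from the deposited FPKM, in which fragments are divided by transcript length and by library size. Hbegf, heparin-binding EGF-like growth factor, was the most abundant gene of the set in each group, with a CON mean of 28.6 ± 9.4 FPKM, a DES mean of 20.5 ± 7.23 and a T.chuii mean of 22.6 ± 10.8 (SD, n = 3). Its distance to the next gene was larger than the larger of the 2 SDs in all 3 groups. Egf, which gives the family its name, was the lowest, at 0.964 ± 0.101, 0.892 ± 0.17 and 0.845 ± 0.112 FPKM. In CON the order from the top was Hbegf, Egfr, Btc, Erbb2, Epgn, Erbb3, Areg, Tgfa, Ereg and Egf. Between Egfr at 10.4 ± 6.22 and Ereg at 1.88 ± 0.372 FPKM, no gene differed from its neighbour in that order by more than the larger SD. Ereg and Egf did. The DES order put Epgn (6.35 ± 2.79 FPKM) above Erbb2 (4.01 ± 1.89), a difference within the SD. In T.chuii the order began with Hbegf, Btc (7.03 ± 1.84 FPKM) and Egfr (5.71 ± 1.97), and the gap between Egfr and Erbb2 (3.01 ± 0.881) exceeded the larger SD. Tgfa (1.44 ± 0.373 FPKM) and Ereg (1.01 ± 0.283) also differed by more than the larger SD there, while Ereg and Egf did not.

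**Figure D1:**
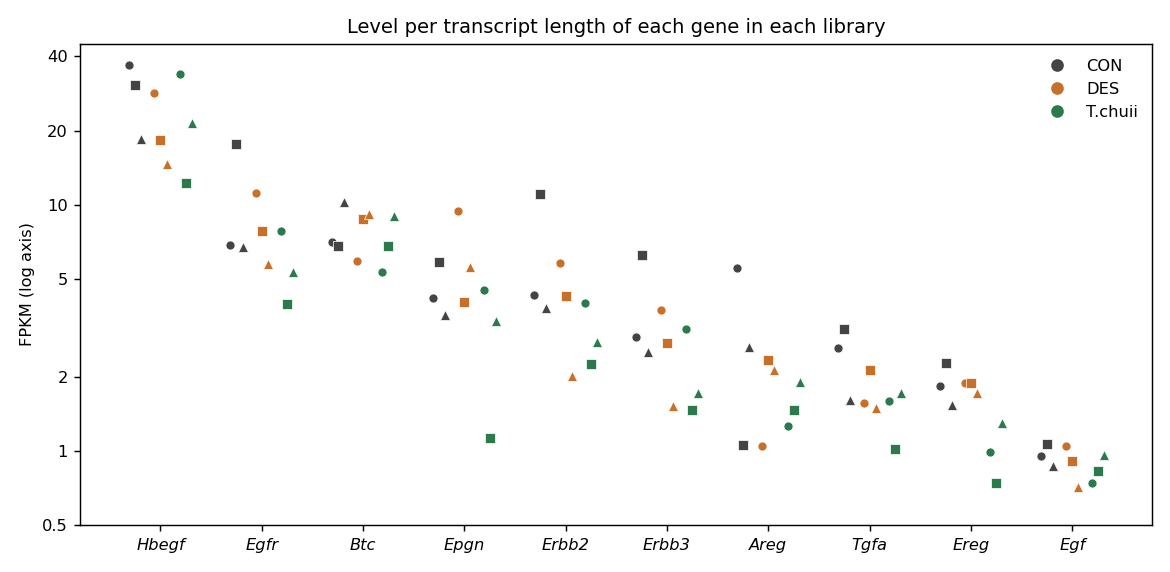
Deposited FPKM of the 10 genes on a log axis, 1 point per library, coloured by group and shaped by library number. Hbegf lies above the other 9 genes in the group means, Egf has the lowest mean, and the genes between them overlap.

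From here on, values of single genes are scaled read counts, as CPM, in which reads are divided by a library size scaled with the trimmed mean of M values. CPM is not divided by length and serves only to compare libraries for the same gene. The comparisons are fold changes on the log2 scale with their SE from limma-voom, fitted on all 9 libraries and 21287 genes. A gene was called at a Benjamini-Hochberg adjusted p below 0.05 over all genes tested. The DES and CON comparison asks what the scopolamine injections went with, and the T.chuii and DES comparison what the alga went with on top of them. The comparisons share libraries with each other, so their values are given side by side.

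No receptor or ligand passed the test in any comparison. The called count was 0 of 10 genes in DES against CON, in T.chuii against DES and in T.chuii against CON, and the background was also 0.0% of 21287 genes in each. At an unadjusted limma-voom p below 0.05, 0, 1 and 1 of the 10 genes were found, against 1.1%, 1.09% and 4.28% of all genes (235, 233 and 912 genes). The DES against CON background was 0.507% lower and 0.597% higher. The gene was Ereg, lower in both T.chuii comparisons, where 0.348% of all genes were lower and 0.747% higher against DES, and 1.13% lower and 3.15% higher against CON. In DES against CON, 0 of the 10 genes were lower without overlap and 0 higher, beside 1.65% and 2.0% of all genes. A fit that paired same-numbered DES and T.chuii libraries, added after the data were seen, called 2 of all genes (0.0094%) and 0 of the 10. Its unadjusted limma-voom p was below 0.05 for 3 of the 10 genes (Ereg, Epgn and Egfr), against 6.01% of all genes (1279 genes). The file headers give these pairs no shared numbers, so the pairing is not established.

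The receptors had lower means in both injected groups than in CON, with wide overlap. The keratocyte and sclera share was also lower in DES than in CON, and its part in the values was not tested. Egfr, the receptor that binds all 7 ligands of the set, had 34.0, 93.0 and 31.0 CPM in CON 1, 2 and 3. It had 61.4, 35.5 and 33.1 in DES, then 44.5, 22.5 and 25.4 in T.chuii. CON 2, DES 1 and T.chuii 1 were the highest of their groups, and the groups overlapped. The log2 change in Egfr was -0.15 ± 0.44 in DES against CON (95% interval -1.11 to 0.82), -0.51 ± 0.44 in T.chuii against DES (-1.49 to 0.47) and -0.65 ± 0.44 in T.chuii against CON (-1.63 to 0.32). Without CON 2, Egfr had a DES against CON value of 0.36, so the direction rested on that library. It also turned without DES 3 (0.01). In T.chuii against CON, Egfr was at -0.14 without CON 2 and -0.95 without T.chuii 1. Against DES, the T.chuii value ran from -0.23 without DES 1 to -0.8 without T.chuii 1. Egfr was lower in T.chuii in all 3 same-numbered pairs, as were Erbb3, Ereg, Epgn and Btc. The share of all genes with this pattern was not counted. The paired fit gave Egfr -0.5 ± 0.16 (adjusted p = 0.578 by limma-voom).

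Erbb2, the receptor without a known ligand of its own and the preferred partner of the others, had 20.7, 62.5 and 18.6 CPM in CON. It had 32.2, 19.5 and 12.0 in DES, then 23.2, 12.5 and 13.7 in T.chuii. The same 3 libraries led their groups, and CON 2 lay 5.23-fold above DES 3, the lowest. The log2 changes of Erbb2 were -0.54 ± 0.49 (95% interval -1.64 to 0.55) in DES against CON, -0.34 ± 0.52 (-1.49 to 0.81) in T.chuii against DES and -0.88 ± 0.5 (-2.0 to 0.23) in T.chuii against CON. The first of these was 0.03 without CON 2, the second was 0.01 without DES 1, and the third was -0.32 without CON 2.

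Erbb3, a neuregulin receptor whose kinase is nearly inactive, had 16.7, 42.6 and 14.8 CPM in CON, then 25.1, 15.1 and 10.8 in DES, then 21.8, 9.69 and 10.1 in T.chuii. It showed the receptors' common pattern, with its highest values in CON 2, DES 1 and T.chuii 1. Its log2 changes were -0.45 ± 0.47 (95% interval -1.48 to 0.59), -0.34 ± 0.49 (-1.44 to 0.75) and -0.79 ± 0.48 (-1.85 to 0.27) in the same order of comparisons. Without CON 2 the DES against CON value was 0.05 and the T.chuii against CON value -0.3. Without DES 1 the T.chuii against DES value was -0.02. Over the 9 libraries, the Pearson correlation of log2 CPM was 0.95 between Egfr and Erbb2, 0.96 between Egfr and Erbb3 and 0.98 between Erbb2 and Erbb3. These points share their libraries and tissue content, and the values are descriptions.

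**Figure D2:**
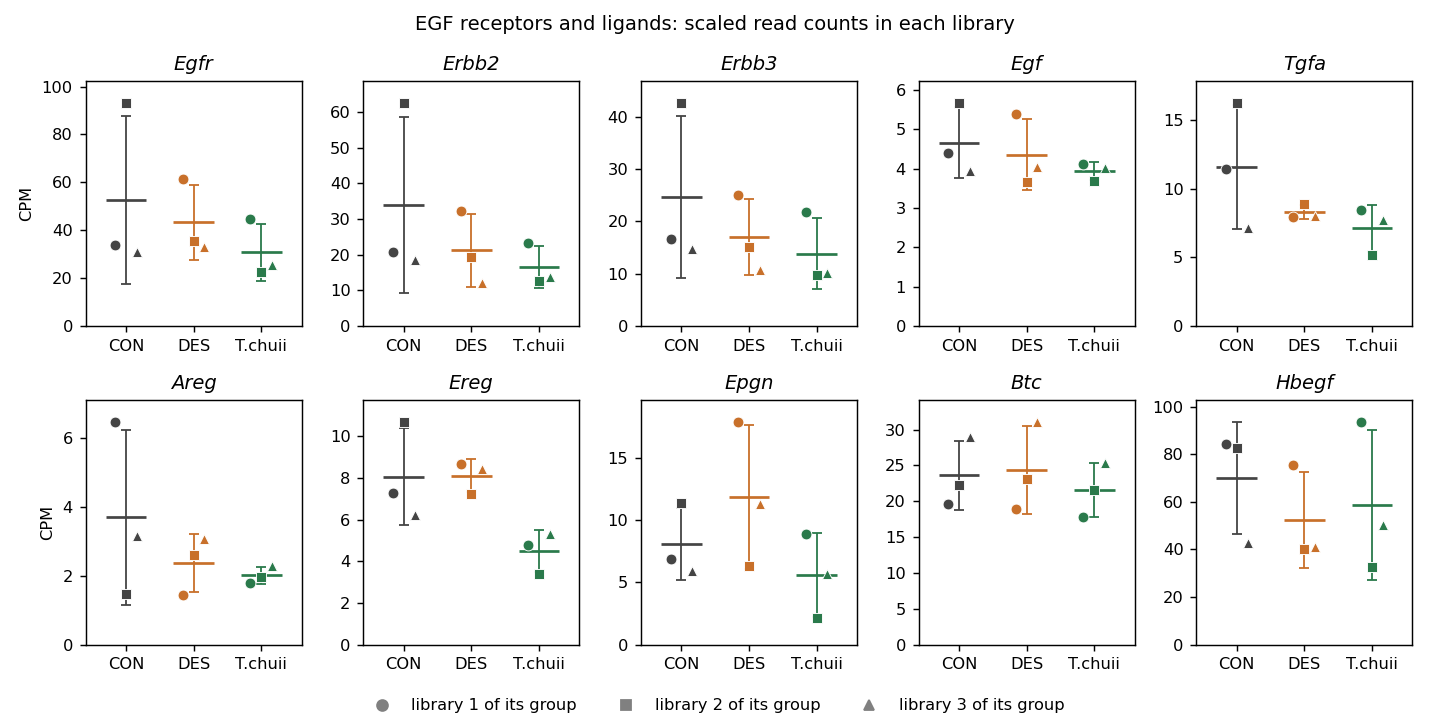
CPM of each of the 10 genes in the 9 libraries. Points are libraries, shaped by their number, horizontal lines are group means and bars are SD over 3 libraries. The 3 T.chuii points of Ereg, from 3.38 to 5.33, lie below all 6 other libraries, while every other panel overlaps.

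The receptors were highest, within each group, in the library with the largest corneal epithelium share of reads. CON 2, the library with the most corneal reads (7.22%), was the highest for all 3 receptors. T.chuii 2, with the fewest (1.35%), was the lowest for Egfr and Erbb3, while Erbb2 was lowest in DES 3. The order did not follow the share everywhere. All 3 receptors were higher in CON 1 (2.94%) than in CON 3 (3.51%), and higher in DES 2 (2.51%) than in DES 3 (2.71%). A lacrimal and Harderian gland list had 3 of 9 genes in the tables. It was also highest in CON 2 (0.727%), DES 1 (0.409%) and T.chuii 1 (0.43%) within their groups. Its gene Ltf was at 22.4 CPM in CON 2, the highest of CON. In DES 1 (6.06 CPM) and T.chuii 1 (8.01 CPM), Ltf was instead the lowest of its group. Ltf had only 1301 of the 64.6 M reads in CON 2. Nearly all of the list's share there came from its other genes, so the share may not measure gland tissue. CON 2 (0.0902%), DES 1 (0.0399%) and T.chuii 1 (0.137%) also led their groups for the Schwann cell and myelin list. The same libraries led for the macrophage list (0.0292, 0.0236 and 0.0398%), with CON 3 close behind CON 2 at 0.0287%. These libraries thus led their groups for all of these lists, and the order alone cannot tell the lists apart. The part of the gland, Schwann cell and macrophage lists in the receptor values was not tested. The most alike genes of each receptor, by Pearson r of log2 CPM over the 9 libraries among 17178 genes, were Nck2 (0.996) and N4bp3 (0.993) for Egfr, Plcb3 and Plekhh3 (both 0.996) for Erbb2, and Pard3 (0.996) and Vdr (0.994) for Erbb3. Library by library, the corneal list took 2.94, 7.22 and 3.51% of CON reads, 4.78, 2.51 and 2.71% of DES reads, and 4.13, 1.35 and 2.09% of T.chuii reads. The rod list was at 3.27, 1.45 and 3.38%, then 1.49, 4.31 and 3.18%, then 0.836, 3.27 and 3.76%. With the ratio of the corneal to the rod list as a covariate, the log2 changes in T.chuii against CON were -0.4 ± 0.22 for Egfr, -0.63 ± 0.3 for Erbb2 and -0.51 ± 0.24 for Erbb3. Leaving out CON 2, DES 1 and T.chuii 1 together gave -0.44 ± 0.19, -0.58 ± 0.26 and -0.66 ± 0.23. Adjusted p-values from limma-voom were at least 0.488 in all 6 of these. In DES against CON, Egfr had a value of 0.05 with the covariate and 0.08 without the 3 libraries.

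**Figure D3:**
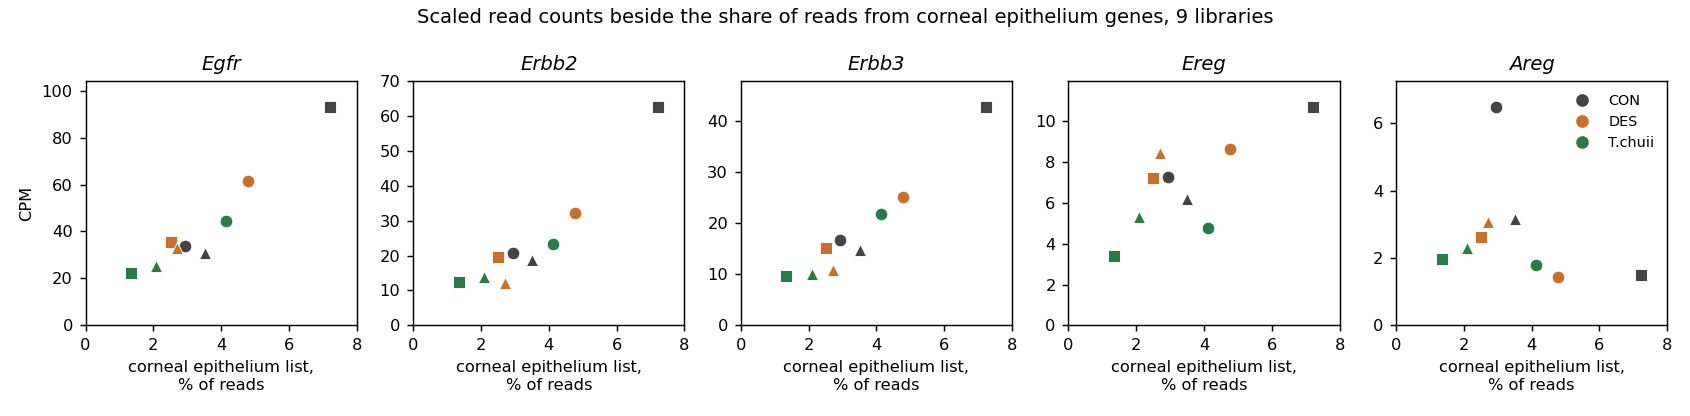
CPM of Egfr, Erbb2, Erbb3, Ereg and Areg (vertical axes) against the share of reads from the corneal epithelium list (horizontal axes, %), 1 point per library. The receptors and Ereg are highest in CON 2 at 7.22%. Ereg is lowest in T.chuii 2 (1.35%), and in T.chuii 1 (4.13%) it lies below CON 1 (2.94%). Areg is highest in CON 1 at 2.94%. The 5 genes, and the libraries compared for Ereg, were picked after their values were seen.

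Among the ligands, Ereg (epiregulin, which binds Egfr and Erbb4) was the only gene of the 10 whose T.chuii libraries did not overlap the other groups. It had 7.28, 10.7 and 6.21 CPM in CON, then 8.66, 7.21 and 8.45 in DES, then 4.77, 3.38 and 5.33 in T.chuii. All 3 T.chuii libraries lay below all 6 others, and CON and DES overlapped. The reads behind these values were 307, 622 and 370 in CON, then 432, 428 and 306 in DES, then 205, 155 and 282 in T.chuii. The group means were 8.07 ± 2.35, 8.11 ± 0.783 and 4.5 ± 1.0 CPM (SD, n = 3).

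In T.chuii against DES, the log2 change of Ereg was -0.86 ± 0.3 (95% interval -1.53 to -0.19, a fold of 0.551), with an adjusted p of 1.0 by limma-voom. In T.chuii against CON it was -0.83 ± 0.3 (-1.49 to -0.17, a fold of 0.563), with an adjusted p of 0.986 by limma-voom. In DES against CON it was 0.03 ± 0.28 (-0.6 to 0.66). Ereg was the 1 gene of 10 with lower, non-overlapping T.chuii libraries in each of the first 2 comparisons, beside 2.49% of all genes in T.chuii against DES and 2.97% in T.chuii against CON. A T.chuii group below every CON and DES library was seen for 140 of 21287 genes (0.658%). Ereg was 56th by p among all genes in T.chuii against DES, and 337th in T.chuii against CON.

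The size of the Ereg difference was compared with tissue content. Ereg was highest in CON 2 (10.7 CPM), with the largest corneal share (7.22%), and lowest in T.chuii 2 (3.38 CPM), with the smallest (1.35%). T.chuii 1 had a corneal share of 4.13%, above the 2.94% of CON 1, and its Ereg was 4.77 CPM against 7.28. These 2 libraries were picked after their values were seen, and such a pair cannot show whether corneal content had a part. With the corneal to rod ratio as a covariate, the log2 change was -0.84 ± 0.24 against DES and -0.74 ± 0.25 against CON. Without CON 2, DES 1 and T.chuii 1 it was -0.86 ± 0.29 and -0.64 ± 0.29. Ereg was lower in T.chuii in all 3 same-numbered pairs, which follows from its lack of overlap with DES. Egfr, Erbb3, Epgn and Btc were too, and the share of all genes with this pattern was not counted. The paired fit gave Ereg -0.87 ± 0.22. Over the 18 alternative settings against DES, the value ran from -1.0 to -0.5, with a smallest adjusted p of 0.412 (limma). Over the 17 against CON, it ran from -1.01 to -0.52, with a smallest adjusted p of 0.322 (limma). Without T.chuii 2 it was -0.67 ± 0.33 against DES and -0.64 ± 0.33 against CON, and the unadjusted p was above 0.05 in both. Against CON this was also so without CON 2 (-0.59 ± 0.28) and without the 3 libraries. The Mueller glia share separated the libraries as Ereg did, in the opposite direction: it was 0.47 to 0.576% in T.chuii and 0.363 to 0.445% in the other 6. The lens share was at most 0.0309% in CON and 1.23 to 6.21% in T.chuii, and the muscle share was also higher in T.chuii than in CON. The part of these 3 lists in the Ereg difference was not tested. DES 2, which also nearly lacked lens reads, had 7.21 CPM of Ereg. Without DES 2 the value against DES was -0.95 ± 0.36. A single library cannot settle whether lens content had a part. Most like Ereg over the 9 libraries were Chst12 (r of 0.978) and Smpd4 (0.961).

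Epgn (epigen, a ligand of Egfr) had the largest fitted difference of the 10 genes in T.chuii against DES, and also the widest span over libraries as a ratio. It had 6.88, 11.4 and 5.94 CPM in CON, then 17.9, 6.32 and 11.3 in DES, then 8.92, 2.14 and 5.65 in T.chuii. DES 1 was the highest library and T.chuii 2 the lowest, 8.39-fold apart, and all groups overlapped. T.chuii was lower than DES in all 3 same-numbered pairs, as for Egfr, Erbb3, Ereg and Btc, with no share over all genes counted. The log2 change was -1.17 ± 0.54 in T.chuii against DES (95% interval -2.36 to 0.03, adjusted p = 1.0 by limma-voom). It was 0.46 ± 0.51 in DES against CON (-0.67 to 1.59) and -0.71 ± 0.55 in T.chuii against CON (-1.93 to 0.51). With the libraries paired, the T.chuii against DES value was -1.15 ± 0.21 (adjusted p = 0.18 by limma-voom). The DES against CON value was 0.09 without DES 1 and 0.89 without DES 2. The T.chuii against CON value was -0.14 without T.chuii 2 and -1.14 without T.chuii 1. T.chuii 2 had 98 reads for Epgn (95% Poisson interval 79.6 to 119, counting error only). Without that library the T.chuii against DES value was -0.6 ± 0.49, and the values over the 18 alternatives ran from -1.61 to -0.6. The covariate gave -1.1 ± 0.29 (adjusted p = 0.998 by limma-voom). Like the receptors, Epgn was highest in CON 2, DES 1 and T.chuii 1 within the groups. Cav2 (0.967) and Dsel (0.962) were most alike.

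**Figure D4:**
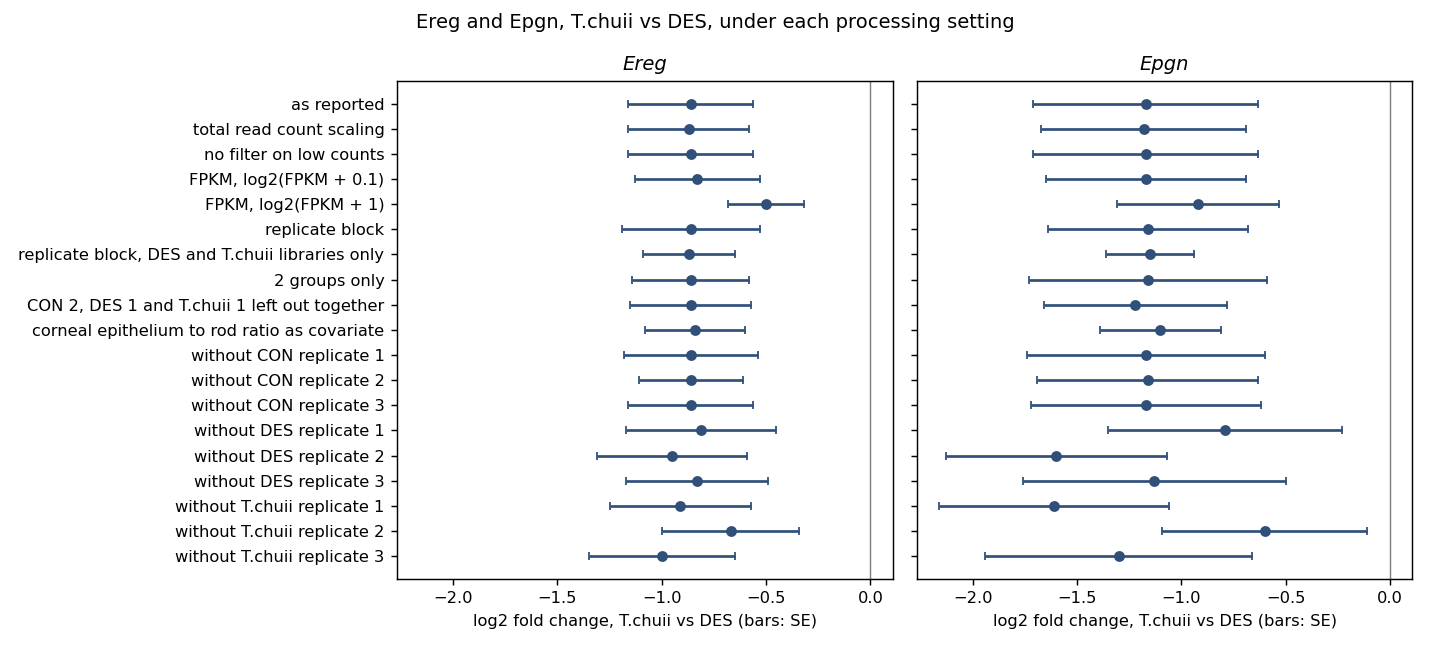
Log2 fold change of Ereg (left) and Epgn (right) in T.chuii against DES under the reported setting and 18 alternatives; bars are SE. Both genes keep a negative value throughout, Ereg between -1.0 and -0.5 and Epgn between -1.61 and -0.6. The pair was chosen after its values were seen.

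Areg (amphiregulin, a ligand of Egfr) was lowest, within each group, in the library where the receptors were highest. It had 6.48, 1.48 and 3.15 CPM in CON, then 1.44, 2.61 and 3.06 in DES, then 1.79, 1.96 and 2.29 in T.chuii. CON 2, DES 1 and T.chuii 1 were the lowest of their groups, and CON 1 stood above the other 8 libraries. It was the thinnest gene of the set, with 72 reads in DES 1 (95% Poisson interval 56.3 to 90.7). The log2 changes were -0.44 ± 0.5 (95% interval -1.55 to 0.68) in DES against CON, -0.16 ± 0.52 (-1.32 to 1.0) in T.chuii against DES and -0.6 ± 0.51 (-1.73 to 0.53) in T.chuii against CON. Without CON 1 the values against CON were 0.06 for DES and -0.11 for T.chuii, so both rested on that library. Without DES 3, the T.chuii against DES value was 0.04. Leaving out CON 2, DES 1 and T.chuii 1 gave -1.05 ± 0.38 in T.chuii against CON, with an adjusted limma-voom p of 0.635. Most alike were the pseudogene Pgam1-ps1 (r of 0.975), whose reads the counting could have split with its parent gene, and Gm42351 (0.954).

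Btc (betacellulin, which binds Egfr and Erbb4) was the steadiest neighbour on chromosome 5. It had 19.6, 22.3 and 29.0 CPM in CON, then 18.9, 23.1 and 31.1 in DES, then 17.8, 21.6 and 25.4 in T.chuii. The 3 groups covered nearly the same range, and the highest library was 1.75-fold above the lowest. The log2 changes were 0.02 ± 0.25 (95% interval -0.55 to 0.58), -0.14 ± 0.26 (-0.71 to 0.43) and -0.13 ± 0.26 (-0.69 to 0.44) in DES against CON, T.chuii against DES and T.chuii against CON. These intervals do not show that the groups were alike. Each of the 3 had the other sign under at least 1 alternative. Over the 9 libraries, r between neighbours was 0.81 for Epgn and Ereg, 0.01 for Ereg and Areg, and 0.25 for Areg and Btc. Shld1 (0.959) and Cfap20 (0.936) were most like Btc.

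Egf itself varied least of all, from 3.66 CPM in DES 2 to 5.66 in CON 2, a 1.55-fold span. It had 4.39, 5.66 and 3.93 CPM in CON, then 5.38, 3.66 and 4.03 in DES, then 4.12, 3.69 and 4.01 in T.chuii. The groups overlapped throughout. The log2 changes were -0.1 ± 0.27 (95% interval -0.71 to 0.5), -0.12 ± 0.28 (-0.74 to 0.49) and -0.23 ± 0.27 (-0.84 to 0.38) in the same order. The first turned to 0.05 without CON 2 and 0.02 without DES 2, and the second to 0.04 without DES 1. B3gnt2 (0.98) and Pop1 (0.977) were most alike.

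Tgfa (transforming growth factor alpha, a ligand of Egfr) had 11.4, 16.2 and 7.16 CPM in CON, then 7.94, 8.91 and 8.03 in DES, then 8.43, 5.15 and 7.71 in T.chuii. CON 1 and CON 2 were the highest of the 9 libraries, and CON 3 overlapped the other groups. The log2 changes were -0.4 ± 0.33 (95% interval -1.12 to 0.33) in DES against CON, -0.26 ± 0.35 (-1.02 to 0.51) in T.chuii against DES and -0.65 ± 0.33 (-1.39 to 0.09) in T.chuii against CON. The last had an adjusted p of 0.986 by limma-voom. Its direction held in all 17 alternatives, from -0.98 without CON 3 to -0.35 without CON 2. The DES against CON value was -0.09 without CON 2 and -0.72 without CON 3, and the T.chuii against DES value was -0.05 without T.chuii 2. Ids (0.967) and Ttpal (0.964) were most alike.

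Hbegf (chr18:36504927-36515805, minus strand), which binds Egfr and Erbb4 and was the most abundant ligand per length, had 84.2, 82.7 and 42.7 CPM in CON. It had 75.6, 40.1 and 41.0 in DES, then 93.6, 32.4 and 50.3 in T.chuii. Its highest and lowest libraries were both T.chuii, 2.89-fold apart. The log2 changes were -0.42 ± 0.42 (95% interval -1.35 to 0.51) in DES against CON, 0.1 ± 0.42 (-0.83 to 1.03) in T.chuii against DES and -0.32 ± 0.42 (-1.25 to 0.61) in T.chuii against CON. The second was -0.31 without T.chuii 1, -0.06 without DES 2 and -0.04 without DES 3, and the third was 0.04 without T.chuii 2. Most alike were Gm9573 (0.953) and Brd7 (0.947).

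Read across the set, 3 of the 10 genes had a higher and 7 a lower mean in DES than in CON, with a median log2 change of -0.27. All tested genes had a median of -0.016, with 52.4% lower. In T.chuii against DES the split was 1 higher and 9 lower (median -0.3), beside -0.03 and 54.9% lower over all genes. In T.chuii against CON all 10 were lower (median -0.65), beside -0.044 and 55.4%. The genes share libraries and follow each other, so these counts are descriptions. Without CON 2, 6 of the 10 were higher in DES than in CON. The count higher in T.chuii than in DES was 3 without DES 1, 2 without DES 3, and 0 without DES 2 or without T.chuii 1. The count higher in T.chuii than in CON was 1 without CON 3, T.chuii 1 or T.chuii 2.

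**Figure D5:**
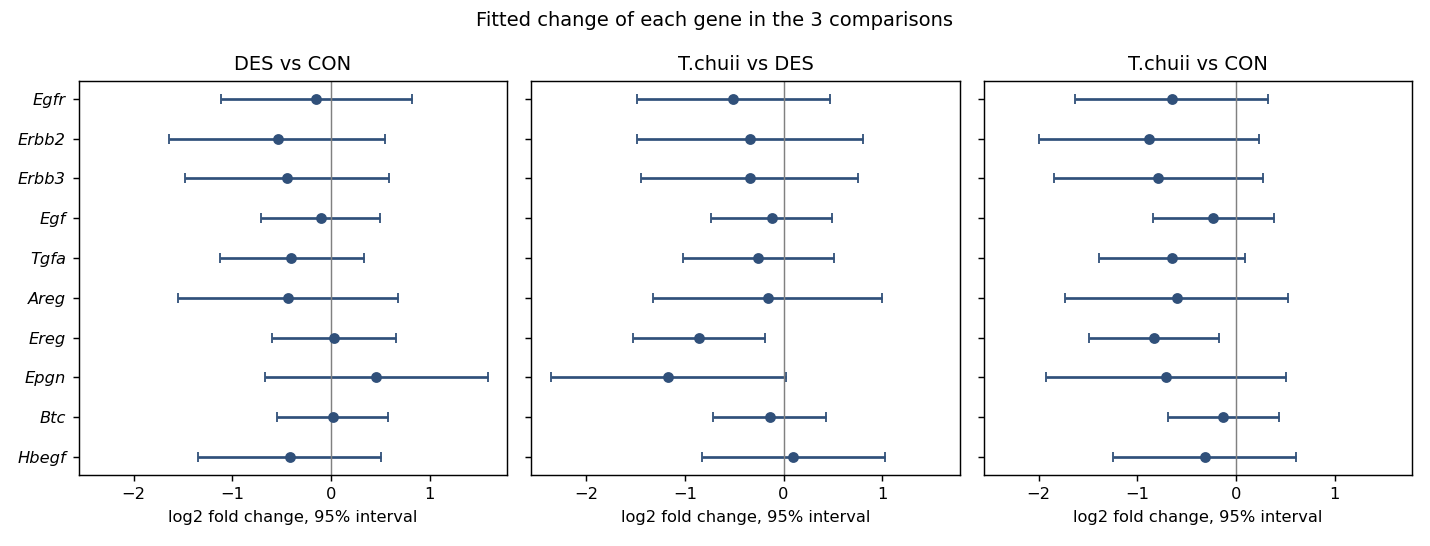
Fitted log2 fold changes of the 10 genes in the 3 comparisons, with 95% intervals. In T.chuii against CON all 10 points lie below 0. The interval leaves 0 out for Ereg alone, in both T.chuii comparisons.

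The rest of the pathway was read from 57 listed genes, all 57 of them tested, and 0 were called in each comparison. In DES against CON, 4 had a higher and 53 a lower mean (median log2 change -0.22), and 0 had an unadjusted limma-voom p below 0.05, beside 52.4% of all genes lower and 1.1% below that p. Without CON 2, 23 were higher, and without DES 3, CON 1 or DES 2 the counts were 16, 8 and 7. In T.chuii against DES, 21 were higher and 36 lower (median -0.1), with 2 at an unadjusted p below 0.05, beside 54.9% and 1.09% of all genes. Without DES 1, 33 were higher. In T.chuii against CON, 12 were higher and 45 lower (median -0.32), with 4 below 0.05, beside 55.4% and 4.28% of all genes. Without CON 2, 19 were higher.

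By role, the 5 genes for ligand release (Adam10, Adam17, Rhbdf1, Rhbdf2 and Timp3) had medians of -0.23, -0.27 and -0.5 in DES against CON, T.chuii against DES and T.chuii against CON. The 15 negative regulators had medians of -0.25, -0.1 and -0.34. Of the 13 induced targets, 13 were below their CON mean in DES (median -0.24) and 12 in T.chuii (median -0.61). Erbb4 and the neuregulins, the remaining receptor and the ligands of Erbb3 and Erbb4, had medians of 0.14, -0.16 and 0.23.

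In DES against CON, the smallest p-values among these 57 genes belonged to Ptpn1, a phosphatase that acts on Egfr (-0.59 ± 0.35), Erbb4 (0.52 ± 0.33) and the transcription factor Etv4 (-0.43 ± 0.3). The adjusted p was 1.0 for each by limma-voom. Erbb4 had 3.39, 3.06 and 4.29 CPM in CON, then 7.56, 4.89 and 3.51 in DES, then 5.96, 5.82 and 4.65 in T.chuii. CON and DES overlapped in DES 3.

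In T.chuii against DES they were Errfi1, Nrg4 and Ier2. Errfi1, a feedback inhibitor of Egfr, had 53.9, 44.8 and 52.5 CPM in DES and 126, 67.9 and 63.0 in T.chuii, beside 71.7, 71.2 and 53.5 in CON. Its DES and T.chuii libraries did not overlap, with T.chuii higher, as for 2.3% of all genes. The log2 change was 0.7 ± 0.28 against DES (adjusted p = 1.0 by limma-voom) and 0.33 ± 0.28 against CON.

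Nrg4, a ligand of Erbb4, had 1.14, 1.45 and 1.19 CPM in CON, then 2.77, 0.539 and 1.88 in DES, then 7.78, 5.04 and 1.72 in T.chuii. T.chuii 1 and 2 stood out, and T.chuii 3 lay among the DES libraries but above CON. The log2 change was 1.53 ± 0.65 against DES and 1.67 ± 0.66 against CON, with adjusted p of 1.0 and 0.986 by limma-voom.

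The immediate early genes Ier2 and Junb completed the named genes. Ier2 had 115, 111 and 76.0 CPM in CON, then 168, 82.7 and 42.3 in DES, then 63.8, 37.2 and 38.8 in T.chuii. Its T.chuii libraries lay below all CON libraries and overlapped DES. The log2 change was -0.89 ± 0.44 against DES and -1.14 ± 0.44 against CON, with adjusted p of 1.0 and 0.986 by limma-voom. Junb, a subunit of AP-1, had 259, 354 and 178 CPM in CON, then 323, 178 and 79.5 in DES, then 155, 64.6 and 74.9 in T.chuii. Its log2 change against CON was -1.48 ± 0.5 (adjusted p = 0.986 by limma-voom), without overlap. Among the 57 genes, 2 were higher and 4 lower in T.chuii than in CON without overlap, beside 5.45% and 2.97% of all genes. The fourth with p below 0.05 there was Myc (-0.78 ± 0.34), named after its value was seen.

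Several of the genes overlap another on the opposite strand in the annotation, and the sources used here do not give the strand setting of the counting. Erbb2 overlaps Mien1, which had 3502 to 6319 reads per library, and Egfr overlaps the antisense RNA Egfros, with 103 to 365 reads. Ereg overlaps the antisense RNA Gm19610, which was not analysed here, and antisense RNAs also overlap Egf. Without a known strand setting, reads of such pairs cannot be told apart. Mien1 did not follow Erbb2. It had 83.1, 82.1 and 106 CPM in CON, while Erbb2 was 62.5 in CON 2 and 20.7 and 18.6 in CON 1 and 3. Egfros, like Egfr, was highest of its group in CON 2 (6.15 CPM), DES 1 (7.32) and T.chuii 1 (5.03). The part of shared reads in this was not tested.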

How the data were processed

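RNA was taken from frozen mouse eyeballs, and libraries were made with the Illumina TruSeq Stranded mRNA kit, per the labels' protocols. The submitters' processing notes name the build mm10 and the tools StringTie 2.1.3b, HISAT2 2.1.0, Bowtie2 2.3.4.1, Trimmomatic 0.38 and FastQC 0.11.7. The authors deposited 1 table per library with a read count and an FPKM per gene, per the file headers. The rows are irregular, so cells were read from the right end. The file headers number the libraries differently from the titles, and groups and numbers were taken from the titles.

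Counts were scaled by the trimmed mean of M values. A gene needed, in 3 libraries, the CPM that 10 reads give at the median library size, and 15 reads in all, which left 21287 of 22587. limma 3.58.1 (voom, R 4.3.3) was fitted to the 9 libraries with 3 group means, 6 residual degrees of freedom and no covariate. Tests were two-sided, with Benjamini-Hochberg adjustment over all genes tested. The procedure was tested on simulated counts, which were drawn without the differences in tissue content seen between these libraries. No 2 libraries were duplicates: every pair had a chi-square of at least 34.6 per degree of freedom.

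The members and lists were chosen with earlier results of these data known. The named genes were the 10 members, the 3 pathway genes with the smallest p in each comparison, and the 2 genes most alike to each member among those with a mean CPM of at least 1. Same-numbered DES and T.chuii libraries deviated together from their group means (correlations 0.59, 0.37 and 0.18), while CON did not pair with DES (-0.33, -0.26 and 0.26) or T.chuii (-0.32, -0.39 and 0.32). The rule that every pair exceeds 0.1 was met for DES with T.chuii. Differently numbered libraries also deviated together, at 0.5 for DES 2 and T.chuii 3. CON 2 was at 0.49 with DES 1 and 0.48 with T.chuii 1. The remaining differently numbered DES and T.chuii libraries were at -0.6 to -0.07. Deviations from a group's own mean cancel within the group, so positive pairs force negative ones elsewhere. The 0.59 belonged to DES 1 and T.chuii 1, which had the smallest rod shares of their groups. In the file headers, DES 1, 2 and 3 were numbered 1, 2 and 4, and T.chuii 1, 2 and 3 were numbered 3, 4 and 5. No pair matched by title shared a header number. The pairing thus rests on these data alone and is not established, since nothing in the labels says what the numbers share. The pathway list of adaptors and signal relay genes is not reported on its own here. The alternatives were other scaling, no filter, FPKM on the log2(value + 0.1) and log2(value + 1) scales, a replicate block, 2 groups only, a tissue covariate and left-out libraries. Gene positions and promoters are from RefSeq, and 22534 of 22587 gene IDs matched its table. Opposite-strand genes are from GENCODE.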

Additional observations from a re-analysis of the deposited data

How the results depend on the processing

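With 3 libraries per group and 6 residual degrees of freedom, intervals were wide. The fewest reads behind a value of the 10 genes were 72. Nrg4 of the pathway lists fell to 0.539 CPM in DES 2, below the lowest value of the 10 genes (1.44 CPM). No member was called under any setting (0 in each comparison), and the smallest adjusted p was 0.999 in DES against CON, 0.322 in T.chuii against CON and 0.18 in T.chuii against DES. Of the 170, 170 and 180 alternative values of the 10 genes in these comparisons, 150, 167 and 171 kept their direction. A left-out library that leaves 2 in a group relies on the spread pooled over all groups.

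The replicate block over all 9 libraries gave Ereg a log2 change of -0.86 and Epgn -1.16 in T.chuii against DES. The replicate block with the DES and T.chuii libraries only, chosen after seeing the data, called 2 genes of all tested in T.chuii against DES and gave Ereg -0.87 and Epgn -1.15; the block changed no call among the members. Over all genes, T.chuii against CON had 12 calls with 2 groups only and 1 with CON 2, DES 1 and T.chuii 1 left out together. Leaving out 1 library at a time gave 0 to 15 calls in DES against CON and 0 to 18 in T.chuii against CON, both highest without DES 2. The cause was not tested.

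In DES against CON, the values that turned were Btc at -0.03 and -0.02 on the 2 FPKM scales (pseudocounts 0.1 and 1) and -0.03 with the covariate, Ereg at -0.02 and -0.02 on the FPKM scales, and Egfr at 0.08 without the 3 libraries and 0.05 with the covariate. In T.chuii against DES without the 3 libraries, Egf was 0.01 and Hbegf -0.01. Ranges over single left-out libraries that crossed 0 were, in DES against CON, -0.97 to 0.06 for Areg, -0.16 to 0.18 for Btc, -0.27 to 0.05 for Egf, -0.43 to 0.36 for Egfr, -0.9 to 0.03 for Erbb2, -0.77 to 0.05 for Erbb3 and -0.15 to 0.27 for Ereg. In T.chuii against DES they were -0.48 to 0.04 for Areg, -0.31 to 0.03 for Btc, -0.25 to 0.04 for Egf, -0.66 to 0.01 for Erbb2 and -0.31 to 0.46 for Hbegf. In T.chuii against CON they were -0.26 to 0.04 for Btc and -0.72 to 0.04 for Hbegf. The cause was not tested. On the FPKM scale with pseudocount 0.1, the median of all genes in T.chuii against CON moved to -0.115 from -0.044, and DES against CON had 1 of 10 members higher. On that scale 35.3% of genes had higher means in T.chuii than in CON, against 44.6% as reported.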
